A study of Mus musculus with 36 samples.

Results

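The 10 genes described here carry out antigen presentation. 6 belong to the class I route, namely B2m, H2-K1, H2-D1, Tap1, Psmb8 and Psmb9, and 4 belong to the class II route, namely Cd74, H2-Aa, H2-Ab1 and H2-Eb1. They were chosen by name from the 56980 genes of a raw count table. All 10 were in the table, and all 10 were among the 25601 genes that passed a filter on low counts and were tested.

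The study measured polyA RNA from mice aged 37 to 45 days. The sample labels give the tissue as brain and the series' design names hippocampus and cortex, but whether each sample pools both is not given in the sources used here. The mice were either knockout (KO) for Ndufs4, a nuclear-encoded accessory subunit of mitochondrial complex I whose loss in mice is used as a model of Leigh syndrome, or wild type (WT). Each received CP2, given in the series' title as an inhibitor of complex I, or vehicle by gavage over consecutive days. Sample titles add the letter F or M, and genotype, treatment and letter define 8 groups. KO CP2 F, KO vehicle F, WT CP2 F, WT vehicle F, KO CP2 M and WT CP2 M hold 5 samples each, and KO vehicle M and WT vehicle M hold 3 each. The labels name neither the strain, nor the part of Ndufs4 that was deleted, nor the age of each mouse. Every title has its own sample number, but nothing else in the labels says that samples were separate mice, so p-values measure the spread between these samples.

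Class I molecules display peptides from inside a cell to CD8 T cells. The peptides are cut by the proteasome, carried into the endoplasmic reticulum by the TAP transporter and bound by a heavy chain paired with beta-2 microglobulin. Class II molecules display peptides from engulfed material to CD4 T cells, and the invariant chain Cd74 guides and protects them until loading. In healthy brain tissue class I transcripts come largely from microglia, endothelium and other support cells, while class II transcripts come mainly from macrophages and dendritic cells of the meninges and vessel borders and from few microglia.

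The library check on the targeted gene and on the title letters came first. Ndufs4 was at 27.4 to 39.1 CPM (a gene's counts scaled to the TMM-adjusted library size) in the KO samples and at 38.9 to 62.8 CPM in the WT samples. These are counts over the whole gene, not over the deleted part. Gene counts ran from 46124548 to 88559920 per sample, with a median of 54749040, and 5.09% to 13.2% of reads fell outside genes. Ddx3y separated F from M in all samples, at 61.8 CPM or more in M and at most 0.214 CPM in F. Xist was intermediate in 1 sample: sample L291 of KO CP2 M had 47.3 CPM, where the other M samples had at most 0.833 and F samples had at least 439. Results that rest on KO CP2 M are therefore also given without sample L291.

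The regulatory sequence near the gene starts is shown first because class I and class II genes are read from starts that hold some of the same short motifs. RefSeq windows of 300 bases, from 250 before to 50 after a gene start on GRCm38.p6, were found for 8 of the 10 genes, and none was used for Cd74 or H2-Ab1. Both strands were searched for the interferon-response core (GAAA, 2 free bases, GAAA), the interferon-gamma-response GAS motif TTCNNNGAA, the kappa B motif (GGGA, 4 free bases, CC) and the Y box core CTGATTGG, bound by NF-Y. Each line below runs from 10 bases before the first match to 10 bases after the last, 5′ to 3′ on the strand of the gene, with the matches in capitals.
B2m, chr2:122147538-122147580, plus strand: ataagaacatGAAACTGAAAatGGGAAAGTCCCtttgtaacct
H2-K1, chr17:34000322-34000468, minus strand: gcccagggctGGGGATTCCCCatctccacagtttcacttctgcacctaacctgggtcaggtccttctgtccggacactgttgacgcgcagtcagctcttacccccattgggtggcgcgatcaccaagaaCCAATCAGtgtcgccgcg
H2-D1, chr17:35262913-35263058, plus strand: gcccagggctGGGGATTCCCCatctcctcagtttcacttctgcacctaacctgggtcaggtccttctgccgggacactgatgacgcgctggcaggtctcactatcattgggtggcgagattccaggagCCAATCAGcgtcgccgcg
Tap1, chr17:34187324-34187351, plus strand: gctcggctttCCAATCAGcggctgcgcg
H2-Aa, chr17:34287857-34287964, minus strand: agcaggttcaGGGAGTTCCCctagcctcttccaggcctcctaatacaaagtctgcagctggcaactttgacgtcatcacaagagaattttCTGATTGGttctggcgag
H2-Eb1, chr17:34305795-34305822, plus strand: tcctttgatgCTGATTGGctcccagcac
The B2m stretch holds the only match to the interferon-response core among the 8 genes, GAAACTGAAA at 139 bases before the start, beside a kappa B match. That core was present in 3.44% of 32851 RefSeq windows. Elements that depart from its exact pattern were not searched for, so genes without a match may still hold an interferon-response element. The heavy chain genes H2-K1 and H2-D1 carry the same 11-letter block, in which kappa B matches on both strands overlap, and a match to the Y box core in reverse orientation. Their windows share a run of 47 identical letters. H2-K1 has 2 RefSeq starts 14 bases apart, and the line shown is the same for both. Its match to the Y box core begins before the downstream start but after the upstream one. The Y box core was found in 6 of 8 genes, against 4.1% of all windows, and kappa B in 4 of 8, against 20.7%. Tap1 and Psmb9 are read in opposite directions from starts 226 bases apart, so their windows overlap by 275 bases and contain the same match to the Y box core. A GAS match, present in 8.3% of windows, was found in Psmb8 alone. These matches are descriptions of letters and not evidence of binding, and which promoter element each match belongs to was not tested.

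The 10 genes spanned a wide range of levels. B2m, the light chain of every class I molecule, had a median of 70.7 CPM over the 36 samples, which was 82.2 CPM per kb of merged exon length in GENCODE M21. The classical heavy chain genes H2-D1 and H2-K1 stood at 17.8 and 10.1 CPM per kb. Cd74 led the class II genes with 3.38 CPM per kb, followed by H2-Eb1 with 1.06 and H2-Ab1 with 0.755 CPM per kb. The peptide transporter subunit Tap1 had 0.709 CPM per kb, and the immunoproteasome subunits Psmb8 and Psmb9 had 0.808 and 0.364 CPM per kb. H2-Aa, the alpha chain of the class II molecule I-A, stood at 0.457 CPM per kb and varied most between samples of the 10 genes, its highest sample being 9.50 times its lowest. Counts behind these values ran from 2411 to 6557 per sample for B2m and from 22 to 146 for Psmb9. H2-K1 and H2-D1 resemble each other and other class I genes closely, and how reads that fit several of them were counted is not given in the sources used here, so their division is uncertain.

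**Figure D1:**
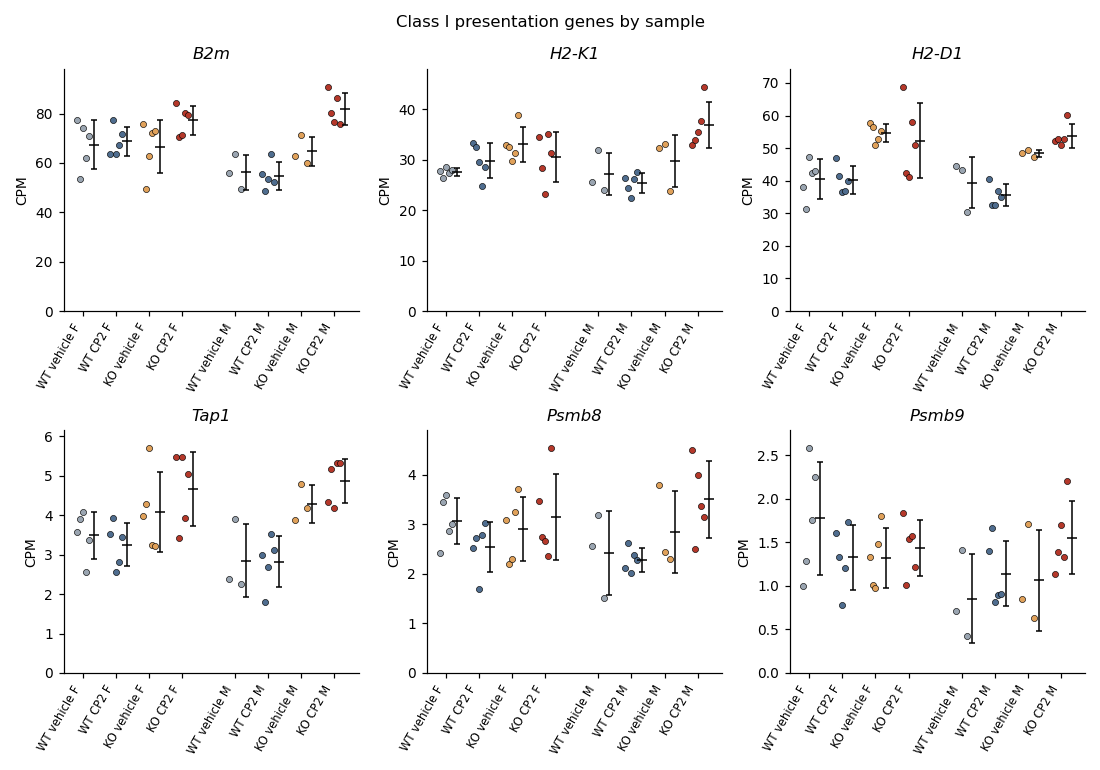
CPM of the 6 class I genes in each of the 36 samples, by group; points are samples, and the bar beside them is the mean ± SD (n = 5, or 3 in KO vehicle M and WT vehicle M). For B2m the 5 KO CP2 M samples lie between 75.9 and 90.9 CPM, above all WT CP2 M samples, and for H2-D1 the means of all KO groups lie above those of all WT groups.

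Class I genes were higher in KO than in WT mice under CP2. Averaged over F and M, 5 of the 10 genes passed an adjusted p of 0.05 in edgeR's quasi-likelihood test, all higher and all class I: B2m, H2-K1, H2-D1, Tap1 and Psmb8. In this comparison 11.6% of the 25601 genes were called, and 5.54% of the 25601 were called higher. All 10 genes had a positive log2 fold change, with a median of 0.40 against 0.012 over all genes tested. Without sample L291 the same 5 genes were called, with edgeR adjusted p from 0.000136 for H2-D1 to 0.0242 for Psmb8. With the level of microglia markers held as a covariate, 3 were called, B2m, H2-D1 and Tap1. H2-K1 at 0.22 (edgeR adjusted p = 0.0772) and Psmb8 at 0.21 (adjusted p = 0.476) were not. That fit called 2680 of all genes tested, where the main fit called 2972. Psmb8 was also not called without the filter on low counts, with the share of reads outside genes or the meningeal markers as a covariate, or without samples L266 and L291. Because tissue was sequenced in bulk, fewer cells of a type and less RNA per cell cannot be told apart in this or any later result.

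The letters are described in turn. B2m was at 75.9, 76.4, 80.1, 86.2 and 90.9 CPM in KO CP2 M, and at 48.7, 52.2, 53.3, 55.7 and 63.4 CPM in WT CP2 M. Every KO sample was above every WT sample, and the fitted B2m log2 fold change was 0.58 (SE 0.098; edgeR adjusted p = 0.000103). In F the same gene was at 70.6, 71.4, 79.5, 80.4 and 84.1 CPM with KO and at 63.6, 63.6, 67.2, 71.7 and 77.4 CPM with WT. These F groups overlapped, and the B2m difference of 0.17 (95% interval -0.030 to 0.36) did not pass the test.

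H2-D1, one of the heavy chains that hold the peptide, showed the same direction in both letters. It was at 50.8, 52.0, 52.8, 52.9 and 60.2 CPM in KO CP2 M and at 32.6, 32.7, 35.0, 36.9 and 40.6 CPM in WT CP2 M, with no overlap and a log2 fold change of 0.60 (SE 0.11; edgeR adjusted p = 0.000426). In F it was at 41.1, 42.3, 51.0, 57.9 and 68.9 CPM with KO and at 36.6, 36.7, 40.0, 41.3 and 47.1 CPM with WT. 2 of the KO CP2 F samples fell within the WT range, and the H2-D1 difference of 0.37 (SE 0.11) missed the threshold with an adjusted p of 0.0704. The other heavy chain gene, H2-K1, was at 32.8, 33.9, 35.5, 37.6 and 44.5 CPM in KO CP2 M against 22.4, 24.4, 26.2, 26.4 and 27.5 CPM in WT CP2 M. Those groups did not overlap either, and H2-K1 rose by a log2 fold change of 0.54 (SE 0.10; edgeR adjusted p = 0.000611). In F, H2-K1 spanned 23.2 to 35.0 CPM with KO and 24.7 to 33.3 CPM with WT, a difference of 0.035 (95% interval -0.18 to 0.25).

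Tap1, which forms the peptide pump together with Tap2, had the largest class I difference. It was at 4.19, 4.34, 5.18, 5.33 and 5.34 CPM in KO CP2 M and at 1.81, 2.68, 3.00, 3.12 and 3.52 CPM in WT CP2 M. The groups were apart, with a Tap1 log2 fold change of 0.79 (SE 0.19; edgeR adjusted p = 0.00557). In F, Tap1 ran from 3.42 to 5.48 CPM with KO and from 2.57 to 3.93 CPM with WT, and its log2 fold change of 0.52 had an adjusted p of 0.149.

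The immunoproteasome subunits moved less clearly. Psmb8, which replaces Psmb5 in the proteasome, ran from 2.50 to 4.50 CPM in KO CP2 M and from 2.01 to 2.62 CPM in WT CP2 M; 1 KO sample, number L291, lay within the WT range. The Psmb8 log2 fold change was 0.46 averaged over letters (SE 0.15; edgeR adjusted p = 0.0381) and 0.62 in M (adjusted p = 0.0592), and the averaged call was lost when any of 9 of the 20 samples was left out. Psmb9, which replaces Psmb6, ran from 1.13 to 2.20 CPM in KO CP2 M and from 0.818 to 1.66 CPM in WT CP2 M, and its averaged difference was 0.27 (95% interval -0.17 to 0.72). Per kb, Psmb8 stood at 1.22% ± 0.253 of Psmb5 in KO CP2 M and at 0.905% ± 0.127 in WT CP2 M (SD, n = 5). Psmb9 stood at 1.07% ± 0.225 of Psmb6 in KO CP2 M and at 0.991% ± 0.372 in WT CP2 M (SD, n = 5). Psmb8 and Psmb9 transcripts were thus a small fraction of those of Psmb5 and Psmb6 in both genotypes.

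Over all 10 genes, 6 were called in M, all higher, where 9.99% of all genes were called and 4.75% were called higher, and 0 were called in F, where 2% of all genes were. Among the 10 genes, 2 had an unadjusted p under 0.05 in F, H2-D1 and Tap1, and DESeq2 called H2-D1 there. 6 of the 10 genes did not overlap between KO CP2 M and WT CP2 M and were higher in KO, against 4.76% of genes higher without overlap. In F 0 of the 10 genes were without overlap, against 3.02% of all genes. Testing the F minus M difference itself, edgeR called 0 of 10, against 0.82% of all genes. 4 of the 10 genes had an unadjusted p under 0.05 for that difference, namely B2m, H2-K1, Cd74 and H2-Ab1, and DESeq2 also called 0. All 10 estimates were negative, the lowest being -1.35 for H2-Ab1 (95% interval -2.36 to -0.34).

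Without sample L291 the M differences of the 4 leading class I genes were 0.59 for B2m, 0.57 for H2-K1, 0.60 for H2-D1 and 0.77 for Tap1, with edgeR adjusted p from 0.000314 to 0.0146. These 4 genes were called in M in each of the 10 fits that left out 1 sample.

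**Figure D2:**
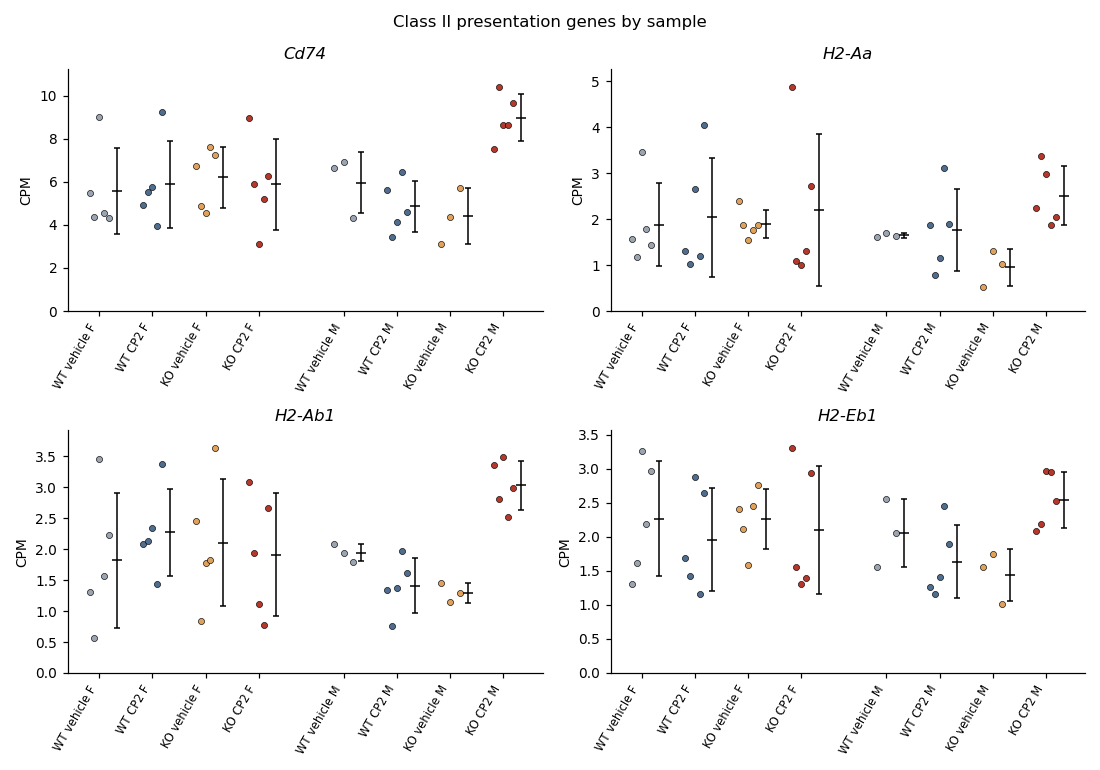
CPM of the 4 class II genes in each of the 36 samples, by group; points are samples, and the bar beside them is the mean ± SD (n = 5, or 3 in KO vehicle M and WT vehicle M). The 5 KO CP2 M samples hold the highest mean of each gene, with Cd74 between 7.55 and 10.4 CPM. For Cd74, 1 sample stands high in KO CP2 F, in WT CP2 F and in WT vehicle F.

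The class II genes differed between KO and WT under CP2 in M only for some members. Cd74 was at 7.55, 8.63, 8.65, 9.66 and 10.4 CPM in KO CP2 M and at 3.46, 4.14, 4.60, 5.63 and 6.47 CPM in WT CP2 M. All KO samples were above all WT samples, and Cd74 rose by a log2 fold change of 0.89 (SE 0.24; edgeR adjusted p = 0.0139). Without WT CP2 M sample L262 its adjusted p was 0.0593, and without sample L291 its log2 fold change was 0.83 with an adjusted p of 0.0364. In F, Cd74 was at 3.11, 5.20, 5.92, 6.26 and 8.96 CPM with KO and at 3.94, 4.94, 5.53, 5.77 and 9.24 CPM with WT, and the groups overlapped almost fully, with a difference of 0.0016 (95% interval -0.48 to 0.49).

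H2-Ab1, the beta chain of I-A, was at 2.52, 2.81, 2.99, 3.35 and 3.48 CPM in KO CP2 M and at 0.760, 1.34, 1.37, 1.62 and 1.97 CPM in WT CP2 M. These groups were apart too, and H2-Ab1 rose by a log2 fold change of 1.11 (SE 0.35; edgeR adjusted p = 0.0392). That call held in only 2 of the 10 fits that left out 1 sample; without sample L291 the adjusted p was 0.0558 at a log2 fold change of 1.13. H2-Eb1, the beta chain of I-E, ran from 2.09 to 2.97 CPM in KO CP2 M and from 1.17 to 2.45 CPM in WT CP2 M, with a difference of 0.64 that did not pass (adjusted p = 0.159). H2-Aa ran from 1.88 to 3.38 CPM against 0.786 to 3.12 CPM, with a difference of 0.51 (95% interval -0.29 to 1.31). The partner of H2-Eb1 in I-E, H2-Ea, is a pseudogene in the reference strain; its entry H2-Ea-ps had at most 2 counts in any sample.

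**Figure D3:**
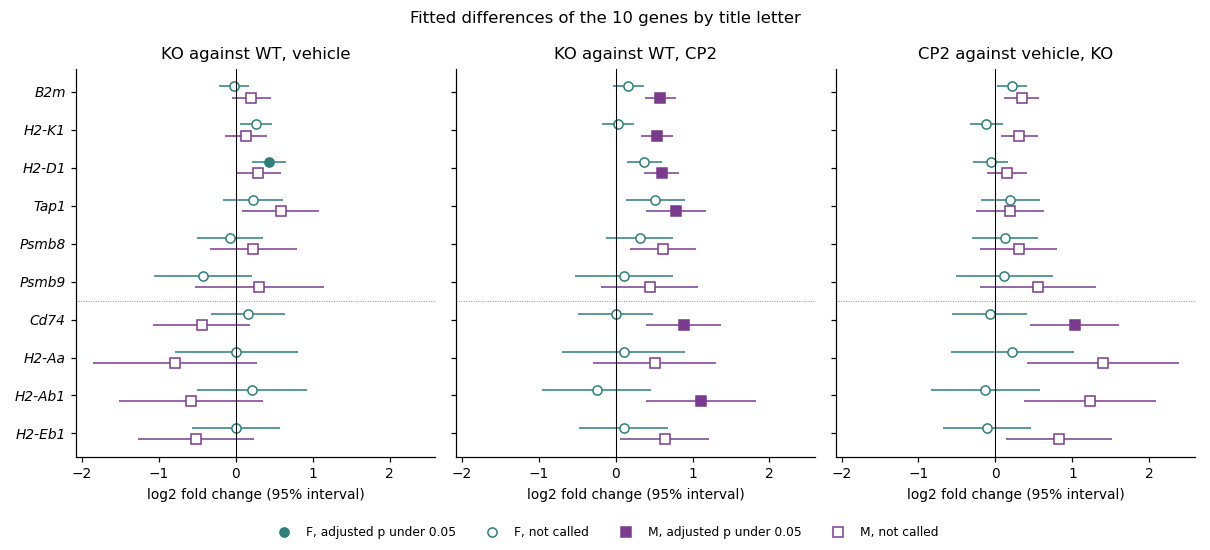
Fitted log2 fold changes of the 10 genes with 95% intervals, for KO against WT with vehicle, KO against WT with CP2 and CP2 against vehicle in KO, with F as circles and M as squares; filled symbols passed an adjusted p of 0.05 and the dotted line parts class I from class II. All 10 M estimates lie above 0 for KO against WT with CP2 and for CP2 against vehicle in KO, and the 4 class II M estimates lie below 0 for KO against WT with vehicle.

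In vehicle-treated mice H2-D1 was the gene that passed the test. Averaged over letters, edgeR called 1 of the 10 genes, against 6.67% of all genes tested, and 3 had an unadjusted p under 0.05. H2-D1 was at 50.9, 52.7, 55.2, 56.5 and 57.7 CPM in KO vehicle F and at 31.2, 38.2, 42.4, 42.9 and 47.4 CPM in WT vehicle F. In M it was at 47.3, 48.6 and 49.3 CPM with KO and at 30.4, 43.2 and 44.6 CPM with WT. The KO samples were above the WT samples in both letters, and the averaged H2-D1 log2 fold change was 0.36 (SE 0.091; adjusted p = 0.0116). Leaving out WT vehicle M sample L303, the lowest, gave 0.29 and an adjusted p of 0.0501. In the same comparison 4 of 5 red blood cell markers were lower, with a median log2 fold change of -1.97, and 2 of 10 microglia markers were lower; the part of these cells in the H2-D1 result was not tested. Reads outside genes averaged 9.24% in KO vehicle F and 5.99% in WT vehicle F, and with that share as a covariate H2-D1 was at 0.33 with an adjusted p of 0.129.

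Within F, H2-D1 was the 1 gene of the 10 called with vehicle, with a log2 fold change of 0.43 (edgeR adjusted p = 0.0185), where 4.96% of all genes were called; without WT vehicle F sample L277 its adjusted p was 0.0546. H2-K1 also did not overlap in F, at 29.8 to 38.9 CPM with KO and 26.4 to 28.5 CPM with WT, and 2 of 10 genes higher without overlap compares with 1.83% of all genes. The H2-K1 difference there was 0.26 (SE 0.10; adjusted p = 0.131). Tap1 had an averaged difference of 0.40 (SE 0.16; adjusted p = 0.109). Within M edgeR called 0 of 10 genes with vehicle, against 0.516% of all genes; H2-D1 and Tap1 had an unadjusted p under 0.05.

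Class II estimates with vehicle lay below 0 in M, but none passed the test. Cd74 was at 3.11, 4.38 and 5.71 CPM in KO vehicle M and at 4.32, 6.66 and 6.91 CPM in WT vehicle M, overlapping, with a difference of -0.44 (95% interval -1.07 to 0.19). H2-Aa was at 0.515, 1.03 and 1.31 CPM against 1.61, 1.63 and 1.71 CPM, and H2-Ab1 at 1.14, 1.29 and 1.46 CPM against 1.80, 1.95 and 2.08 CPM. These groups of 3 did not overlap, nor did those of H2-D1, which makes 3 of 10 genes against 20.9% of all genes tested. The F minus M difference of the vehicle comparison was called for 0 of 10, against 0.102% of all genes; 0 of the 10 had an unadjusted p under 0.05, and DESeq2 also called 0.

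CP2 was next set against vehicle in KO mice; this comparison shares its KO CP2 and KO vehicle samples with those above. Averaged over letters 1 of the 10 genes was called, against 3.91% of all genes: B2m, with a log2 fold change of 0.28 (SE 0.075; edgeR adjusted p = 0.0270). Microglia markers moved in the same comparison: 5 of 10 rose and 0 fell, with a median log2 fold change of 0.30. B2m was not called with their level held as a covariate. That fit called 0 of all genes tested, where the main fit called 1002, so the lost call was not particular to B2m. Oligodendrocyte markers moved as well, with 3 of 5 higher and a median of 0.39; their part in the B2m result was not tested. The B2m call was also lost, with values from 0.25 to 0.27, without KO vehicle F sample L281, KO CP2 M sample L266 or either of KO vehicle M samples L310 and L322. In M, B2m was at 60.2, 62.6 and 71.3 CPM with vehicle, below all 5 CP2 samples, and its log2 fold change was 0.34 (adjusted p = 0.0719). In F, B2m was at 49.3, 62.9, 72.2, 73.0 and 75.6 CPM with vehicle, overlapping the CP2 samples, with a log2 fold change of 0.21 (adjusted p = 0.405).

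The class II genes of KO M mice had larger estimates but few samples. Cd74 rose by a log2 fold change of 1.03 (SE 0.29; edgeR adjusted p = 0.0282) from the 3 vehicle samples to the 5 CP2 samples given above, which did not overlap. Cd74 was the 1 gene of 10 called there, against 5.1% of all genes, and without sample L291 its log2 fold change was 0.96 with an adjusted p of 0.0582. The call was also lost without KO CP2 M sample L299 or any of KO vehicle M samples L310, L319 and L322. H2-Aa, H2-Ab1 and H2-Eb1 had log2 fold changes of 1.39, 1.22 and 0.82, with adjusted p of 0.0899, 0.0858 and 0.164. B2m, H2-D1 and all 4 class II genes were higher without overlap, 6 of 10 genes against 6.63% of all genes. In F 0 of 10 genes were called, against 0.0859% of all genes; 1 had an unadjusted p under 0.05, and 0 were without overlap, against 1.04%.

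In WT mice CP2 gave 0 calls among the 10 genes and 0% of all genes tested; 0 of the 10 and 1031 of the 25601 had an unadjusted p under 0.05, and DESeq2 called 0 of the 10. The WT groups overlapped for all 10 genes in F, against 0.605% of all genes without overlap, and in M, against 4.54%. The B2m difference was -0.0060 (95% interval -0.16 to 0.14) and that of Cd74 was -0.11 (95% interval -0.48 to 0.26). The interaction of genotype and CP2 was called for 0 of 10 genes in edgeR, against 0.715% of all genes, and by DESeq2 for 0. All 10 interaction estimates were positive, with a median of 0.36, and B2m (0.28), Cd74 (0.58) and H2-Eb1 (0.63) had an unadjusted p under 0.05. The interaction uses the same samples as the comparisons above and is not a separate observation of them.

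The order of the 8 groups differed between genes. H2-D1 had its 4 KO groups on top, from 54.6 CPM ± 2.81 in KO vehicle F (SD, n = 5) to 48.4 CPM ± 1.05 in KO vehicle M (SD, n = 3), and its 4 WT groups below, from 40.5 CPM ± 6.09 in WT vehicle F (SD, n = 5) to 35.5 CPM ± 3.33 in WT CP2 M (SD, n = 5). The gap between KO vehicle M and WT vehicle F exceeded the smaller of their SDs. Tap1 also had its KO groups above its WT groups, though 0 gaps between neighbours exceeded the smaller SD. B2m was led by KO CP2 M (81.9 CPM ± 6.50, SD, n = 5) and KO CP2 F (77.2 CPM ± 5.94, SD, n = 5), and its lowest group was WT CP2 M (54.7 CPM ± 5.51, SD, n = 5). For Cd74 the gap below KO CP2 M (8.98 CPM ± 1.10, SD, n = 5) was the only one beyond the smaller SD, and KO vehicle M was lowest (4.40 CPM ± 1.30, SD, n = 3).

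Markers of other cells moved with these genes. The summed CPM of 10 microglia markers ran from 402 to 511 in KO CP2 M and from 324 to 396 in WT CP2 M, without overlap. In KO against WT with CP2 averaged over letters, 11.6% of all genes tested were called and 5.54% were called higher. Of the 10 microglia markers 5 were called higher and 0 lower there, among them P2ry12 (log2 fold change 0.40) and Gpr34 (0.48). The estimates of 2 of the 10 were negative. The sum of 5 meningeal fibroblast markers ran from 103 to 169 in KO CP2 M and from 60.2 to 100.2 in WT CP2 M, again without overlap. Of these markers Lum and Col1a1 rose in M, where 4.75% of all genes tested were called higher. 8 border and perivascular macrophage markers summed to 16.5 to 31.5 CPM in KO CP2 M and 10.9 to 19.6 CPM in WT CP2 M, with 0 of 8 called. In F the microglia sums overlapped, at 369 to 498 CPM in KO CP2 and 372 to 432 CPM in WT CP2, and so did the meningeal sums, at 41.7 to 147 CPM and 48.6 to 123 CPM. Markers of lymphocytes, granulocytes and dendritic cells were uneven. Cd3d was at 0 in 28 of 36 samples, Cd8a in 24, Ncr1 in 27, Ly6g in 31 and Xcr1 in 28. Other markers of these lists were at 0 in no sample, with medians of 13.2 CPM for Ighm, 10.2 CPM for Zbtb46, 7.52 CPM for Flt3, 3.70 CPM for Trbc2 and 2.17 CPM for Cd4. Of 9 T and NK cell markers 4 passed the filter, and 0 were called in the averaged comparison. Among dendritic and B cell markers Itgax (1.83) and Cd79b (1.20) were higher and Flt3 (-0.44) was lower there. The share of reads outside genes also differed, at 5.18% to 9.06% in KO CP2 M and 9.05% to 13.2% in WT CP2 M.

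Fits that held such a measure as a covariate gave the following in KO against WT with CP2 in M. With the mean log2 level of the microglia markers, B2m, H2-K1, H2-D1 and Tap1 were still called, at 0.38, 0.43, 0.53 and 0.85, while Cd74 at 0.82 and H2-Ab1 at 0.56 were not (edgeR adjusted p = 0.103 and 0.488). With that of the meningeal markers the same 4 class I genes were called, at 0.48, 0.44, 0.48 and 0.77, while Cd74 at 0.46 was not (adjusted p = 0.136) and H2-Aa was at -0.24. With the share of reads outside genes they were called at 0.45, 0.52, 0.65 and 0.94, and Cd74 at 0.86 had an adjusted p of 0.104. Over all genes tested these fits called 1142, 1921 and 862 in turn, where the main fit called 2558. Beyond these fits, the part of other cells in the results was not tested.

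**Figure D4:**
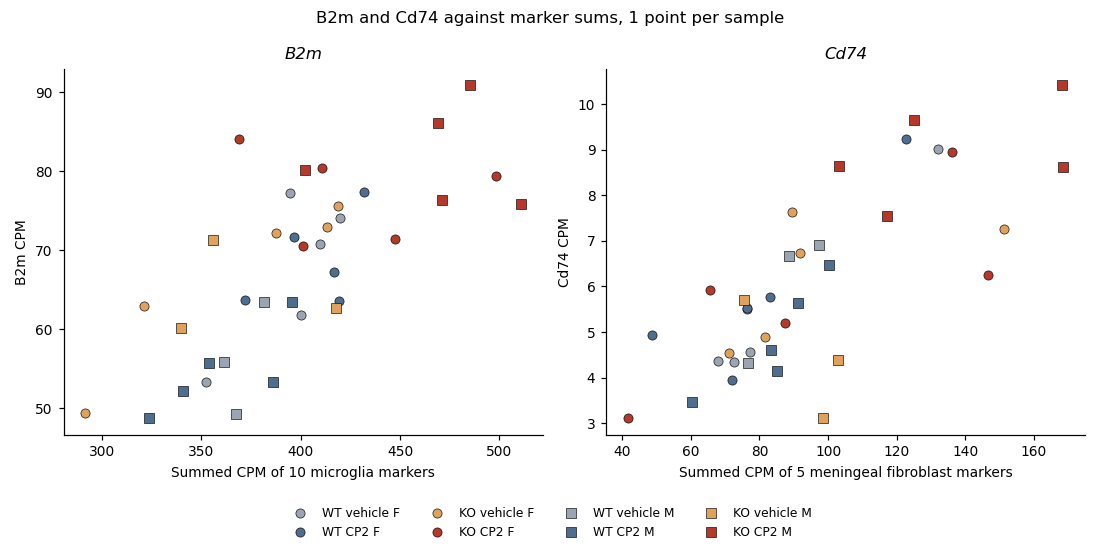
B2m CPM against the summed CPM of 10 microglia markers, and Cd74 CPM against the summed CPM of 5 meningeal fibroblast markers, with 1 point per sample, colour for genotype and treatment, circles for F and squares for M. Samples of KO CP2 M lie toward the upper right of both panels, and samples L201, L278 and L311 of F groups lie near them in the Cd74 panel, at 8.96, 9.03 and 9.24 CPM.

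Across the 36 samples B2m and the class II genes were set against these markers. 20 relations were computed, of each gene with the mean log2 level of the microglia and of the meningeal markers, using 2-sided permutation tests with 100000 resamples and Benjamini-Hochberg adjustment over the 20. The resamples shuffled all 36 samples without regard to group, so these p-values also take in differences between groups. Relations centred on group means are given further below without a test. B2m followed the microglia markers with Pearson's r of 0.70 (adjusted p = 6.67e-05, from a permutation p of 1e-05, the smallest the resamples can give) and Spearman's rho of 0.70 (adjusted permutation p = 6.67e-05). Its r was 0.70 without the 2 samples farthest from the median marker level, 0.64 among the 20 F samples and 0.82 among the 16 M samples. Psmb8 and H2-Ab1 followed these markers too, with r of 0.59 and 0.53 (adjusted permutation p = 0.0004 and 0.00251), rho of 0.60 and 0.54, and r of 0.59 and 0.52 without the 2 farthest samples. H2-K1 had r of 0.40 with them (adjusted permutation p = 0.0274), rho of 0.44 and r of 0.55 without the 2 farthest samples, but -0.049 in F and 0.78 in M. H2-D1 had r of 0.25 with the same markers (adjusted permutation p = 0.155) and rho of 0.35 (adjusted permutation p = 0.0529), with r of 0.49 without the 2 farthest samples and -0.081 in F and 0.66 in M. The pooled H2-D1 relation thus did not hold within F. Psmb9 and H2-Eb1 had r of 0.39 and 0.35 with the microglia markers (adjusted permutation p = 0.0291 and 0.0485). Their rho was 0.37 and 0.32 (adjusted permutation p = 0.039 and 0.0734). Cd74, Tap1 and H2-Aa had r of 0.34, 0.26 and 0.17 with them (adjusted permutation p = 0.0572, 0.148 and 0.316).

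Cd74 followed the meningeal fibroblast markers with r of 0.75 and rho of 0.74 (adjusted permutation p = 6.67e-05 for each). Its r was 0.67 without the 2 farthest samples, 0.81 in F and 0.74 in M. H2-Aa, H2-Ab1 and H2-Eb1 had r of 0.68, 0.64 and 0.64 with these markers, with adjusted permutation p of 6.67e-05, 2e-04 and 2e-04, rho of 0.77, 0.67 and 0.65, and at least 0.58 in each letter. Without the 2 farthest samples the r of these genes was 0.64, 0.63 and 0.65. The class I genes H2-K1, Psmb8, H2-D1 and B2m also followed the meningeal markers, with r of 0.52, 0.45, 0.43 and 0.41 (adjusted permutation p = 0.00298, 0.0123, 0.0169 and 0.0232), rho of 0.53, 0.47, 0.49 and 0.46, and r of 0.45, 0.56, 0.43 and 0.46 without the 2 farthest samples. With the microglia markers, centring every sample on its group mean left r at 0.56 for Psmb8, 0.55 for B2m and 0.46 for H2-Ab1. It was 0.30 for H2-Eb1, 0.27 for H2-K1 and Psmb9, 0.18 for H2-D1 and from -0.064 to 0.088 for Tap1, H2-Aa and Cd74. With the meningeal markers centred r was 0.75 for H2-Aa, 0.72 for Cd74, 0.63 for H2-Eb1 and 0.62 for H2-Ab1. It was 0.42 for B2m, 0.41 for H2-D1, 0.40 for H2-K1 and 0.38 for Psmb8 there. All values share the library they were measured in. Relations with the border and perivascular macrophage markers, or with the other marker lists, were not computed. Whether the relations are particular to the microglia or the meningeal markers was therefore not tested.

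Among themselves, the class II genes varied together most. The 6 pairs of class II genes had a median Pearson's r of 0.72 over the 36 samples and 0.65 after centring on group means, as a description. The 15 class I pairs had a median r of 0.54, or 0.33 after centring, and the 24 pairs across the classes had 0.38, or 0.31. Of all genes tested, the ones most like B2m over the 36 samples by Pearson's r were Ctss, a lysosomal protease that trims the invariant chain (0.86), Sh3bgrl (0.79), Itm2b (0.78), Mpeg1, a macrophage gene (0.78), and Snapin (0.78). Those most like Cd74 were Osr1 (0.79), Fmod, an extracellular matrix proteoglycan (0.75), Olfml2a (0.75), Cdh1, the cadherin of epithelia (0.75), and Serping1, the C1 inhibitor (0.74).

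Other genes of the class I route moved in KO against WT with CP2, averaged over letters. Of 28 listed, 26 were tested; 6 were higher and 2 lower, with a median log2 fold change of 0.21, where 11.6% of all genes tested were called and 5.54% were higher. In M 7 were higher and 0 lower, where 9.99% of all genes tested were called and 4.75% were higher. In F 0 were higher and 1 was lower, where 2% of all genes tested were called. The difference between letters was not tested for the list. Psme1, a subunit of the proteasome activator PA28, rose by 0.42 (SE 0.057; edgeR adjusted p = 5.37e-06). It was at 33.5 to 40.5 CPM in KO CP2 M and at 20.1 to 26.2 CPM in WT CP2 M, with a difference of 0.64 in M and 0.19 in F, and the F minus M difference was itself called at -0.45 (adjusted p = 0.0454). H2-Q6 (1.98), H2-M3 (0.67), H2-Q4 (0.47), Mr1 (0.44) and Tapbp (0.24) were also higher. H2-Q6 had at most 48 counts in any sample and closely resembles other class I genes. H2-M3 and Mr1 encode nonclassical class I heavy chains and Tapbp encodes tapasin, which links TAP to class I. Calr, the chaperone calreticulin, and H2-T24 were lower, at -0.34 and -0.36. With vehicle Calr was again lower, at -0.44, and 0 of the 26 were higher, where 6.67% of all genes tested were called. Nlrc5, the class I transactivator, was at 0.38 to 1.76 CPM over all groups and did not pass the test in any comparison.

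Other class II genes gave 5 higher and 2 lower of 18 tested from 20 listed, with a median log2 fold change of 0.16, beside the same 11.6% called and 5.54% higher among all genes tested. The lysosomal proteases Ctss (0.64), Ctsl (0.33) and Lgmn (0.27) and the peptide-loading genes H2-DMb1 (0.63) and H2-Ob (0.93) were higher. Ctss was at 61.6, 72.7, 79.9, 80.4 and 89.4 CPM in KO CP2 M and at 35.5, 40.1, 42.7, 47.4 and 49.3 CPM in WT CP2 M, without overlap. Ciita, the master transactivator of class II genes, was lower, by a log2 fold change of -0.77 averaged (SE 0.24; edgeR adjusted p = 0.0300) and of -1.46 in M (adjusted p = 0.00403). It was at 0.460, 0.744, 0.785, 1.12 and 1.28 CPM in KO CP2 M and at 1.47, 1.84, 2.30, 2.85 and 3.64 CPM in WT CP2 M. In KO CP2 M, Ciita was thus below all WT CP2 M samples, while Cd74 and H2-Ab1 were above all WT CP2 M samples. Rfxank, a subunit of the RFX complex that binds class II promoters, was lower at -0.30. Rfx5, another subunit, was the 1 gene of the 18 called with vehicle, at 0.26, where 6.67% of all genes tested were called. Ciita in F differed by -0.080 (adjusted p = 0.944).

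Interferon-stimulated genes were called in the same comparison. Of 26 tested, 10 were higher and 0 lower, all 26 had positive estimates, and the median was 0.45, where 5.54% of all genes tested were higher. By letter, 3 were higher with a median of 0.20 in F, where 2% of all genes tested were called. In M 8 were higher with a median of 0.56, where 4.75% of all genes tested were higher. The difference between letters was not tested for the list. Ifit3 (1.20), Ifit3b (0.99), Oasl2 (0.73) and Lgals3bp (0.65) were the highest of them. With vehicle Irgm1 (0.44), Ifit2 (0.36) and Lgals3bp (0.30) were higher and 0 were lower of the 26. There 6.67% of all genes tested were called, and 736 of the 25601 were higher. Among 16 tested genes of interferon signalling 0 were higher and 1 was lower, Irf3 at -0.43 (adjusted p = 0.000879 in edgeR). Irf1, a transcription factor of the interferon response, was not called in M, with a difference of 0.061 (adjusted p = 0.860). Of the 3 constitutive proteasome catalytic subunits Psmb6 was higher, at 0.20 (adjusted p = 0.0313), and Psmb5 and Psmb7 were not called. In CP2 against vehicle within KO mice, averaged over letters, Ctss (0.40) and Ifi27 (0.40) were called across these 5 lists and 0 genes were lower. The lists held 26, 18, 16, 26 and 3 tested genes, and 3.91% of all genes tested were called. In M alone that comparison gave 1 class I and 2 class II pathway genes higher and 1 interferon signalling gene lower. There 5.1% of all genes tested were called.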

How the data were processed

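Raw read counts per gene were deposited by the authors in 1 table covering the 36 samples. Per the submitters' processing notes, STAR, HTSeq and GRCm39 were used; versions, annotation and strand setting are not given in the sources used here. 5 summary rows that name no gene were left out. The row for reads outside genes held 5.09% to 13.2% of all reads in the table, summary rows included. Gene symbols were matched for 52073 of 56980 IDs (91.4%). Counts were fitted in edgeR 4.0.16 (R 4.3.3) with TMM scaling, filterByExpr on the 8 groups, 1 coefficient per group over all 36 samples and a robust quasi-likelihood test. Benjamini-Hochberg adjustment ran over the 25601 genes tested in each comparison, with calls made below 0.05. DESeq2 1.42.0 was an alternative. Errors of fold changes are SEs. Levels per kb used GENCODE M21 merged exon lengths, which is not the counting annotation. The script was tested on simulated data. Replicates correlated at 0.958 to 0.979 in log2 CPM, and no pair of the 66 within groups differed by less than sampling noise.

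The named genes were the 10 members, Ndufs4, fixed regulators (Ciita, Nlrc5, Irf1, Psmb5, Psmb6, Psmb7; another is not reported here), up to 4 called genes per list and direction, and the 5 genes most like B2m and Cd74; Psme1, Tapbp, Lgmn and the cell type markers fall outside this rule and were named after their values were seen. The members, gene lists and marker lists were chosen with earlier results of these data known. Alternatives covered other tools, filters, scaling, covariates and leaving out each sample; the fits with the meningeal score and without samples L266 and L291 were chosen after seeing the data.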

Additional observations from a re-analysis of the deposited data

Results flagged for a closer look

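3 of 60 gene and group combinations had a sample far from the others of its group by Dixon's test at the 95% level, where chance flags about 1 in 20. Sample L299 of KO CP2 M had 60.2 CPM of H2-D1, against 52.9 CPM in the next sample. Sample L278 of WT vehicle F had 9.03 CPM of Cd74, against 5.50 CPM in the next, and 3.45 CPM of H2-Aa, against 1.78 CPM. The gaps were 0.784, 0.753 and 0.733 of the group's range, above the critical value of 0.71. The same sample L278 had the highest sum of meningeal fibroblast markers in its group, at 132 CPM; the part of these cells in its class II level was not tested.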

How the results depend on the processing

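Numbers of called genes are out of 10. Holding the fraction of reads that fell outside genes constant in the model ("the share" here), KO against WT with vehicle gave 0 averaged and 0 in F, and CP2 against vehicle in KO gave 0 averaged and 0 in M; the hippocampal CA score gave 0 in F with vehicle and 0 in KO M. The microglia score gave 3 for KO against WT with CP2 averaged, and 0 for CP2 in KO averaged and in M. DESeq2 gave 1 for KO against WT with CP2 in F and 3 for CP2 in KO M. CP2 in KO averaged also gave 0 with the title number, and 0 with only the groups compared, which gave 4 in M. KO M gave 0 without the filter and with the meningeal score, and leaving out samples L266 and L291 gave 0 averaged and 0 in M. Leaving out 1 sample gave 0 to 2 for vehicle averaged, 0 to 1 for vehicle in F, 4 to 6 for CP2 averaged, 0 to 1 in F, 4 to 6 in M, and 0 to 1 for CP2 in KO averaged and in M.

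Averaged estimates that changed sign, none of them called, were Psmb9 with vehicle (0.014 with the share, 0.024 with microglia), H2-Ab1 with vehicle (0.0032 with the share), H2-Aa with CP2 (-0.14 with the meningeal score), and, for CP2 in KO, H2-D1 (-0.041 with the title number, -0.014 with microglia) and Psmb8 (-0.029 with the share, -0.14 with microglia). Leaving out 1 sample gave -0.053 to 0.21 for Psmb8, -0.32 to 0.23 for Psmb9 and -0.33 to 0.0013 for H2-Ab1 with vehicle, and -0.020 to 0.080 for H2-D1 with CP2 in KO. Within letters, H2-Aa with CP2 in M was -0.24 with the meningeal score, Psmb8 with CP2 in KO M was -0.070 with the share and -0.077 with microglia, and B2m, Psmb8, H2-Aa and H2-Eb1 with vehicle in F changed sign under some alternatives. Leaving out 1 sample changed the sign with vehicle in F of B2m (-0.089 to 0.080), Psmb8 (-0.18 to 0.015), H2-Aa (-0.12 to 0.35), H2-Ab1 (-0.075 to 0.58) and H2-Eb1 (-0.14 to 0.17). Signs within letters were examined for 3 comparisons, vehicle in F, CP2 in M and CP2 in KO M. The cause was not tested. No paired analysis was possible because each sample carries its own title number. Low counts of Psmb9 and H2-Aa limit what their intervals can show.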

Other observations

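The highest class II sample of 3 F groups was also high in meningeal and macrophage transcripts. The 4 class II genes summed to 20.2 CPM in sample L201 of KO CP2 F, to 19.3 CPM in sample L311 of WT CP2 F and to 19.2 CPM in sample L278 of WT vehicle F. These samples had the highest sums of border and perivascular macrophage markers in their groups, at 23.6, 29.7 and 27.1 CPM. Their meningeal sums were 136, 123 and 132 CPM, the highest of WT CP2 F and WT vehicle F; in KO CP2 F sample L234 had more, at 147 CPM, with a class II sum of 14.6 CPM. All 3 samples were chosen after their values were seen.

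The remaining catalytic subunit of the immunoproteasome, Psmb10, stood apart from Psmb8 and Psmb9. Per kb it was at 69.3% ± 6.03 (SD, n = 3) to 88.2% ± 5.98 (SD, n = 5) of its constitutive partner Psmb7 as a group mean, where Psmb8 and Psmb9 were at most 1.24% of theirs.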
